A study of Ceratotherium simum with 9 samples.

Results

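The miRNAs described here are miR-122, miR-192 and miR-215, which are known best from the liver, the gut and the kidney. They were measured in extracellular vesicles (EVs) from the follicular fluid (FF) of the southern white rhinoceros (SWR). They are 5 of the 3886 mature miRNA entries in the deposited table: eca-miR-122, bta-miR-192, eca-miR-192, bta-miR-215 and eca-miR-215. The 5 entries were chosen by name, with earlier results of these data known. The prefix gives the species of the reference miRNA to which the reads were matched, eca for horse and bta for cattle, since the reads came from a rhinoceros. All 5 entries passed the filter on low values, which left 417 entries to be tested, and all 5 had reads in each of the 9 libraries.

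FF was aspirated through the rectal wall under ultrasound from follicles of 2 females. Libraries were made for growing follicles (G, 11 to 17 mm in diameter), dominant follicles (D, 18 to 29 mm) and pre-ovulatory follicles (P, 30 to 34 mm), 3 for each stage. Both females had been given the progestin chlormadinone acetate and then the GnRH analog Deslorelin, so all 3 stages come from stimulated ovaries, and the follicles were rinsed with a flushing solution that contained heparin. The age of the animals is not given in the sources used here. Each library holds RNA from EVs pooled over the 2 animals, and the replicates are described both as pooled technical replicates and as biological ones. The p-values therefore measure only the spread between these libraries, which may be technical.

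miRNAs are short RNAs that guide silencing complexes to mRNAs, mainly through the seed, the bases near the 5′ end that pair with the target. miR-122 is the most abundant miRNA of hepatocytes, where it acts on cholesterol and lipid metabolism, and its level in plasma is used as a marker of liver injury. miR-192 and miR-215 are paralogs with the same seed, enriched in intestine, kidney and liver. In human and mouse they are transcribed together with miR-194 from separate gene clusters, are induced by p53 and restrain the cell cycle. FF is formed in large part from plasma that crosses the follicle wall, and also holds vesicles shed by granulosa, theca and cumulus cells.

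The sequences of the miR-215 entries are shown because the results below depend on how reads were divided between them. They are given as DNA, 5′ to 3′, with the seed (bases 2 to 8) in capitals.
bta-miR-215: aTGACCTAtgaattgacagaca
eca-miR-215: aTGACCTAtgaattgacagac
The equine sequence has 21 bases and is identical to the first 21 of the 22 bases of the bovine one, which has 1 extra base at its 3′ end. A read that lacks this base matches both entries. Counting allowed up to 2 mismatches and gave equine entries priority. How reads that match both entries were divided was not tested, so the level of a single entry is less certain than the sum of both. Sequences of the other 3 entries were not used here. Whether reads also passed between miR-192 and miR-215 was therefore not tested, and the sums do not remove this limit.

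The values are read counts scaled to the size of the library (CPM) and adjusted by the trimmed mean of M-values (TMM). The smallest value of a library is the worth of 1 read, and dividing by it returned the number of reads behind each value. Libraries held 18384 to 149281 miRNA reads with a median of 38258, and 1 read was worth 5.64 CPM in G3, the deepest of the G libraries, and 38.6 CPM in P2. A few libraries stood apart. In G1, bta-miR-11980 took 34.97% of the reads, and in D2, eca-miR-148a took 71.8%. In G3, 610 entries had reads, against 309 in D1, the fewest, and 348 in P2, the next most. The paper's read summary gives G3 the most raw reads and the lowest percentage that passed quality control. The G libraries did not resemble each other most: over all tested entries, G1 correlated best with P1 (Pearson r = 0.82), G2 with D1 (r = 0.82) and G3 with P3 (r = 0.81). From a list of granulosa and gonad miRNAs, eca-miR-21, abundant in granulosa cells, averaged 34232 ± 11358 CPM in G and 45580.3 ± 13002 CPM in D, with 23431 ± 6133 CPM in P (SD, n = 3 each). The gonadal bta-miR-202 averaged 1288 ± 1014, 1489 ± 1936 and 1448 ± 1457 CPM in the same order. It ranged from 0 to 3677 CPM in D, and hsa-miR-202-3p and hsa-miR-202-5p were at 0 in every library. Which cells these miRNAs came from was not tested.

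The 5 entries held 20867 of the 540126 reads of all libraries. They made up 2.07, 2.10 and 3.45% of the reads of the G libraries (from replicate 1 to replicate 3, the order used throughout), 7.37, 2.27 and 6.82% of those of the D libraries, and 6.75, 4.94 and 5.86% of those of the P libraries. Every P library was thus above every G library, and D2, whose reads were mostly eca-miR-148a, lay among the G libraries. On the CPM scale, where TMM offsets such a dominant entry, their sum averaged 25323 ± 9735 CPM in G, then 66052 ± 6844 CPM in D and finally 45403 ± 12767 CPM in P (mean ± SD, n = 3 each). Ranked by CPM within a library, eca-miR-122 stood between place 4 and 29, bta-miR-192 between 8 and 47, eca-miR-192 between 18 and 65, bta-miR-215 between 22 and 93, and eca-miR-215 between 52 and 227.

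**Figure D1:**
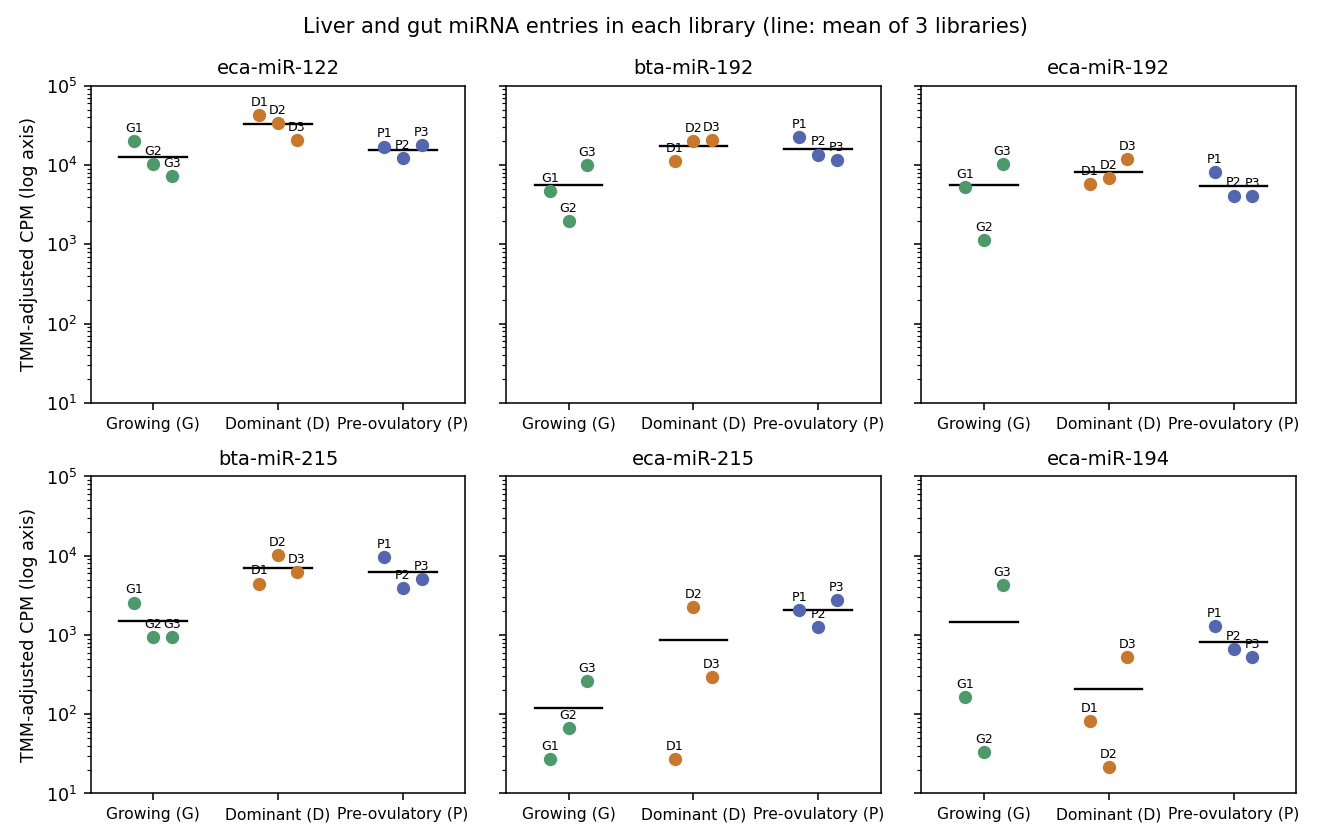
TMM-adjusted CPM (log axis) of the 5 entries and of eca-miR-194 in each library, with the stages from left to right. Points are libraries and lines are means of 3; bta-miR-215 lies between 937 and 2568 CPM in G and at 3865 CPM or more in every D and P library, while eca-miR-215 runs from 27.2 to 2250.0 CPM within D.

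Changes between stages are differences of mean log2(CPM + 10), the later stage minus the earlier one, and understate the change of low entries. They were tested with limma in one fit of all 9 libraries, with Benjamini-Hochberg adjustment over the 417 entries. An entry was called at an adjusted p under 0.1 with at least a 2-fold change. D vs. G and P vs. G share the G libraries, so that a low G library moves both. In EV RNA from pooled fluid, fewer vesicles that carry a miRNA and fewer copies in each vesicle cannot be told apart.

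The liver miRNA eca-miR-122 had its highest mean CPM in D. It had 43082, 34182 and 20499 CPM in D1, D2 and D3, against 20244, 10209 and 7309 CPM in G1, G2 and G3. The lowest D library was just above the highest G library, so these groups did not overlap, with means of 32588 ± 11376 CPM in D and 12587 ± 6788 CPM in G (SD, n = 3 each). The log2 change in D vs. G was 1.44 (SE 0.51, 95% interval 0.33 to 2.55), a 2.71-fold difference that limma did not call (adjusted p = 0.369). In P, the level was 17173, 12213 and 17796 CPM, with the smallest spread of the 3 stages (15727 ± 3059 CPM, SD, n = 3). Each P library lay within the range of G and below every D library. The log2 change was 0.43 in P vs. G (SE 0.51, adjusted p = 0.847 by limma). In P vs. D the level was 2.01-fold lower (95% interval of the log2 change -2.11 to 0.10, SE 0.51, adjusted p = 0.327 by limma). With each library scaled to its total the log2 change in P vs. D was -0.18, and as a share of reads D2 (1.06%) was below every P library (1.72 to 2.52%), so the separation of P and D depends on the scaling. An exact permutation test over the 3 stages gave p = 0.0536 for this entry, and limma's moderated F gave an adjusted p of 0.397.

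Markers of blood cells also had their highest mean in D. The summed level of red-cell miRNAs (7 of 9 entries had reads, led by bta-miR-451 and eca-miR-486-5p) ranged from 37592 to 159300 CPM in G, 82089 to 214200 CPM in D and 33508 to 57460 CPM in P. bta-miR-144 and hsa-miR-451b were at 0. That of leukocyte miRNAs (10 of 12 entries with reads, led by hsa-miR-223-5p and bta-miR-142-5p) ranged from 1448 to 3682 CPM in G, 3699 to 9433 CPM in D and 766 to 1198 CPM in P, with bta-miR-142-3p and hsa-miR-155-3p at 0. Endothelial miR-126 (3 of 3 entries) ranged from 7513 to 10943 CPM in G, 10961 to 16117 CPM in D and 4561 to 6335 CPM in P. For all 3 lists the mean of the sum was highest in D and lowest in P, and their part in the level of miR-122 was not tested. This order was not particular to them. The list of granulosa and gonad miRNAs had it too, with means of 64331 CPM in D, 47840 CPM in G and 36153 CPM in P. The median log2 change of the tested entries was 0.98 for the red-cell list, 1.16 for the leukocyte list and -1.39 for miR-126 in D vs. G, so that for miR-126 it had the opposite sign to the sum, which eca-miR-126-3p carried (12885 ± 2806 CPM in D and 8457 ± 1587 CPM in G, SD, n = 3 each).

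miR-192, one of the p53-induced paralogs, was read mostly as the bovine entry in D and P. In G the entries had 2019 bovine and 2036 equine reads, of which 1788 and 1808 were in G3. bta-miR-192 had 11396, 19925 and 21028 CPM in the D libraries. It had 22498, 13604 and 11680 CPM in the P libraries, against 4699, 1975 and 10091 CPM in the G libraries. In CPM, all D and all P libraries were above all G libraries, with G3 close to the lowest of both. As a share of reads D2 (0.62%) was below G3 (1.21%), so the separation of D and G depends on the scaling. With each library scaled to its total, the change in D vs. G was 1.40 on the log2 scale. The log2 change was 1.89 in D vs. G (SE 0.62, 95% interval 0.56 to 3.22, adjusted p = 0.290 by limma) and 1.75 in P vs. G (SE 0.62, 95% interval 0.42 to 3.08, adjusted p = 0.337 by limma). Without G2 these changes were 1.29 and 1.15. Between the later stages the means were 15927 ± 5771 CPM in P and 17449.7 ± 5271 CPM in D (SD, n = 3 each), and the log2 change of -0.14 had an interval from -1.47 to 1.19. An exact permutation test over the 3 stages gave p = 0.0429 for bta-miR-192, and limma's moderated F gave an adjusted p of 0.229.

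The equine entry of miR-192 did not show this pattern. eca-miR-192 had 5739, 6945 and 11927 CPM in the D libraries and 8278, 4135 and 4027 CPM in the P libraries, against 5300.0, 1138 and 10204 CPM in the G libraries. The stages overlapped throughout, and the spread within G was almost as wide as that over all libraries. The log2 change was 0.98 in D vs. G (adjusted p = 0.645), 0.39 in P vs. G (adjusted p = 0.914) and -0.59 for P vs. D (adjusted p = 0.719), all by limma. Without G2, whose level was the lowest, the change in P vs. G was -0.51, so its direction rests on this library, and that in D vs. G was 0.0856. Summed over both entries, miR-192 averaged 25653 ± 7980 CPM in D and 21408 ± 8177 CPM in P, against 11136 ± 8647 CPM in G (SD, n = 3 each). Its log2 change was 1.53 in D vs. G (SE 0.64, adjusted p = 0.431), 1.25 in P vs. G (SE 0.64, adjusted p = 0.584) and -0.27 for P vs. D (SE 0.64, adjusted p = 0.891) in the limma fit of the summed table. Without G2 the changes against G were smaller, 0.80 in D vs. G and 0.52 in P vs. G.

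miR-215, the other paralog, differed most clearly between G and the later stages. bta-miR-215 had 4461, 10168 and 6228 CPM in the D libraries. It had 9642, 3865 and 5135 CPM in the P libraries, against 2568, 937 and 937 CPM in the G libraries. These values rest on 164, 470 and 271 reads in D, 516, 100 and 204 reads in P, and 94, 28 and 166 reads in G. All D and P libraries were above all G libraries, and G1 was the nearest to them. The log2 change was 2.31 in D vs. G (SE 0.65, 95% interval 0.92 to 3.71), a 4.97-fold difference, and 2.13 in P vs. G (SE 0.65, 95% interval 0.73 to 3.52), a 4.37-fold difference. limma called neither, with an adjusted p of 0.187 and 0.261. Without G1, bta-miR-215 was called in both, with a log2 change of 2.79 and an adjusted p of 0.0536 in D vs. G and of 2.61 and 0.0688 in P vs. G. The number of all called entries then stood at 8 in D vs. G and 19 in P vs. G, against 4 and 2 with all libraries. Over its 21 other settings the adjusted p of bta-miR-215 ran from 0.0536 to 0.543 in D vs. G and from 0.0534 to 0.804 in P vs. G. An exact permutation test over the 3 stages gave p = 0.025, the lowest of the 5 entries, and limma's moderated F an adjusted p of 0.1496. In P vs. D the log2 change was -0.19, with an interval from -1.58 to 1.21.

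The equine entry of miR-215 was rarer and varied most. eca-miR-215 had 2093, 1275 and 2794 CPM in P1, P2 and P3, from 112, 33 and 111 reads. In D it had 27.2, 2250.0 and 299 CPM, from 1, 104 and 13 reads, and in G 27.3, 66.9 and 265 CPM, from 1, 2 and 47 reads. All P libraries were above all G libraries, and the D libraries spanned nearly the whole range, with D2 at the level of P and D1 at the level of the lowest G library. The log2 change was 4.41 in P vs. G (SE 1.31, 95% interval 1.59 to 7.23), the largest change of the 5 entries and rank 2 of the 417 entries tested, and was not called by limma (adjusted p = 0.255). In P vs. D it was 2.73 (SE 1.31, adjusted p = 0.316) and in D vs. G 1.68 (SE 1.31, adjusted p = 0.647). Single libraries moved these values: P vs. G was 3.75 without G1 and 5.20 without G3, P vs. D was 1.23 without D1 and 4.20 without D2, and D vs. G was 3.18 without D1 and 0.21 without D2. Without G1 and D2 the D vs. G change was -0.44, so its direction rests on these libraries.

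Summed over both entries, miR-215 had 4488, 12418 and 6527 CPM in D and 11735, 5140.2 and 7929 CPM in P, against 2595, 1004 and 1202 CPM in G. The groups did not overlap in D vs. G or in P vs. G. How many of all summed miRNAs separated in this way was not counted. Among single entries, every D library was above every G library in 5.04%, and every P library in 3.6%. The means were 7811 ± 4118 CPM in D and 8268 ± 3310 CPM in P, against 1601 ± 867 CPM in G (SD, n = 3 each). The log2 change was 2.28 in D vs. G (SE 0.63, 95% interval 0.92 to 3.63, adjusted p = 0.257) and 2.41 in P vs. G (SE 0.63, 95% interval 1.06 to 3.76, adjusted p = 0.154) in the limma fit of the summed table, and 0.13 in P vs. D (95% interval -1.22 to 1.49). Without G1 the first 2 changes were 2.69 and 2.82 and were called, with an adjusted p of 0.0889 and 0.0609, but calls in the whole summed table then numbered 6 in D vs. G and 12 in P vs. G, against 3 and 2 with all libraries. Over the 21 other settings the adjusted p ran from 0.0195 to 0.504 in D vs. G and from 0.0146 to 0.709 in P vs. G. limma's moderated F over the 3 stages gave an adjusted p of 0.105, and the exact permutation test p = 0.0286.

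**Figure D2:**
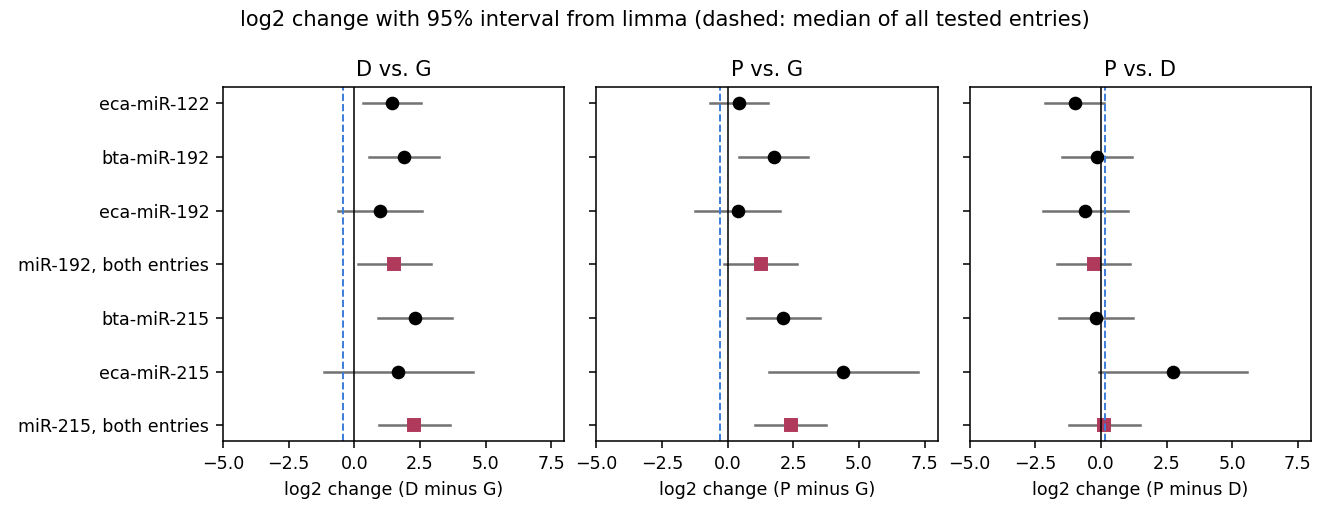
log2 change of each entry (circles) and of miR-192 and miR-215 summed over their entries (squares), with the 95% interval from limma, for D vs. G, P vs. G and P vs. D. The intervals of eca-miR-122, bta-miR-192 and bta-miR-215 are above 0 in D vs. G, and those of bta-miR-192, bta-miR-215 and eca-miR-215 in P vs. G; the dashed line is the median of all tested entries.

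In D vs. G, limma called 0 of the 5 entries, and 4 of all 417 (0.959%). At an unadjusted p under 0.05 it found 3, eca-miR-122, bta-miR-192 and bta-miR-215, where 39 of all entries did (9.35%). The same 3 entries were those with every D library above every G library in CPM, which held for 21 of all entries (5.04%). As a share of reads this did not hold for eca-miR-122 and bta-miR-192, in which D2 was below a G library. edgeR on the recovered reads called 0 of the 5 and 4 of all entries (0.959%). DESeq2 called 2, bta-miR-192 (adjusted p = 0.0636) and bta-miR-215 (adjusted p = 0.0644), and 14 of all entries (3.36%). The choice of tool therefore decided these calls. In the summed table limma called 0 of the 3 miRNAs and 3 of all 378 tested (0.794%).

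In P vs. G, limma called 0 of the 5 entries and 2 of all (0.48%). At an unadjusted p under 0.05 it found 3, bta-miR-192, bta-miR-215 and eca-miR-215, where 31 of all entries did (7.43%), and in the same 3 every P library was above every G library, as in 15 of all entries (3.6%). edgeR called 0 of the 5 and 3 of all (0.719%). DESeq2 called these 3 entries, bta-miR-192 and bta-miR-215 at an adjusted p of 0.0534 and eca-miR-215 at 0.0212, and 14 of all entries (3.36%). Since it gave an adjusted p to only 228 of them, this is 6.14% of the entries that could be called, and in D vs. G 4.03% of 347. In the summed table limma called 0 of the 3 and 2 of all (0.529%). DESeq2 called miR-215 in this table, with an adjusted p of 0.0146 in P vs. G, where it called 10 of the 365 miRNAs given an adjusted p (2.74%), and of 0.0195 in D vs. G, where it called 13 of 306 (4.25%).

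In P vs. D, where calls were most frequent over all entries, none of the 5 was called by limma (11 of all, 2.64%), by edgeR (7 of all, 1.68%) or by DESeq2 (46 of all, 11.0%, or 17.2% of the 267 given an adjusted p). None had an unadjusted p under 0.05 by limma (61 of all, 14.6%). Every P library was below every D library in 1 of the 5, eca-miR-122, and in 42 of all entries (10.1%). In the summed table limma called 0 of the 3 and 12 of all (3.17%).

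The scale of the comparison matters, because the median of all tested entries was not at 0. It was -0.43 in D vs. G, -0.28 in P vs. G and 0.16 for P vs. D, and -0.77, -0.03 and 0.70 when each library was scaled to its total instead of by TMM. Relative to this median, eca-miR-122 in D vs. G stood at 1.87 with TMM and 1.72 with total scaling, and bta-miR-215 at 2.74 and 2.60. In P vs. G, bta-miR-192 stood at 2.03 and 2.12, bta-miR-215 at 2.41 and 2.497, and eca-miR-215 at 4.69 and 4.73. In P vs. D, eca-miR-122 stood at -1.17 and -0.88, and bta-miR-215 at -0.35 and -0.06. Not taken relative to the median, the P vs. D changes of bta-miR-192, eca-miR-192 and bta-miR-215, negative with TMM, were 0.69, 0.23 and 0.64 with total scaling. The median change of the 5 entries was 1.68 in D vs. G and 1.75 in P vs. G, with 5 of 5 positive in both, and -0.19 in P vs. D, with 1 of 5 positive. The share of positive changes over all entries was not counted. Entries of one miRNA can share reads, and both comparisons with G share its libraries. The signs of eca-miR-192 in P vs. G and of eca-miR-215 in D vs. G turned when certain libraries were left out. In D vs. G, bta-miR-215 was twelfth of all tested entries from the top, with 97.1% of them below it, and eca-miR-122 had 91.4% below it.

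Ratios within a library do not depend on its scaling, and 4 were examined, with p-values not adjusted. The share of miR-215 among the reads of both paralogs was 20.6, 24.4 and 5.59% in G, 20.8, 31.6 and 16.5% in D, and 27.6, 22.5 and 33.5% in P. Exact 95% binomial intervals, which cover counting error only, were 17.0 to 24.6% in G1 and 4.88 to 6.37% in G3, so these replicates differed beyond it. The stages overlapped, and an exact permutation test over the 3 stages gave p = 0.336. By the reads counted for each, miR-192 was thus the more abundant paralog in all 9 libraries, with 10091 reads in all against 2437 of miR-215.

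The balance between the entries of miR-192 was the ratio with the lowest permutation p, although in P vs. D the mean log2 differences of the miR-215 entries (2.87) and of the miR-194 ratio (2.90) were larger. The equine entry took 53.0, 36.6 and 50.3% of the miR-192 reads of the G libraries. In the D libraries it took 33.5, 25.8 and 36.2%, and in the P libraries 26.9, 23.3 and 25.6%. All G libraries were above all D and P libraries, although G2, with 93 reads, was just above D3 and had a wide interval (26.8 to 47.2%). The exact permutation test over the 3 stages gave p = 0.0107. The mean log2 ratio of equine to bovine reads differed by -0.91 in D vs. G and by -1.36 in P vs. G, each at the smallest exact p that 3 against 3 libraries allow (0.1, two-sided), and by -0.45 in P vs. D (p = 0.2, exact). Leaving out any library kept D vs. G between -1.20 and -0.70 and P vs. G between -1.66 and -1.18. The bovine and equine entries of this miRNA therefore did not hold 1 fixed share of its reads, and sequences that would show which reads went to which entry were not used here.

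For miR-215, whose entries differ in the last base printed above, the equine share was 1.05, 6.67 and 22.1% in G, 0.606, 18.1 and 4.58% in D, and 17.8, 24.8 and 35.2% in P. Each of the other stages held 1 library at the level of P (G3 and D2) and 1 library with a single read of the equine entry (G1 and D1). The exact permutation test over the 3 stages gave p = 0.218. Libraries with a low equine share of miR-215 were not those with a low equine share of miR-192, since G1 had 1.05% of the first and 53.0% of the second.

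**Figure D3:**
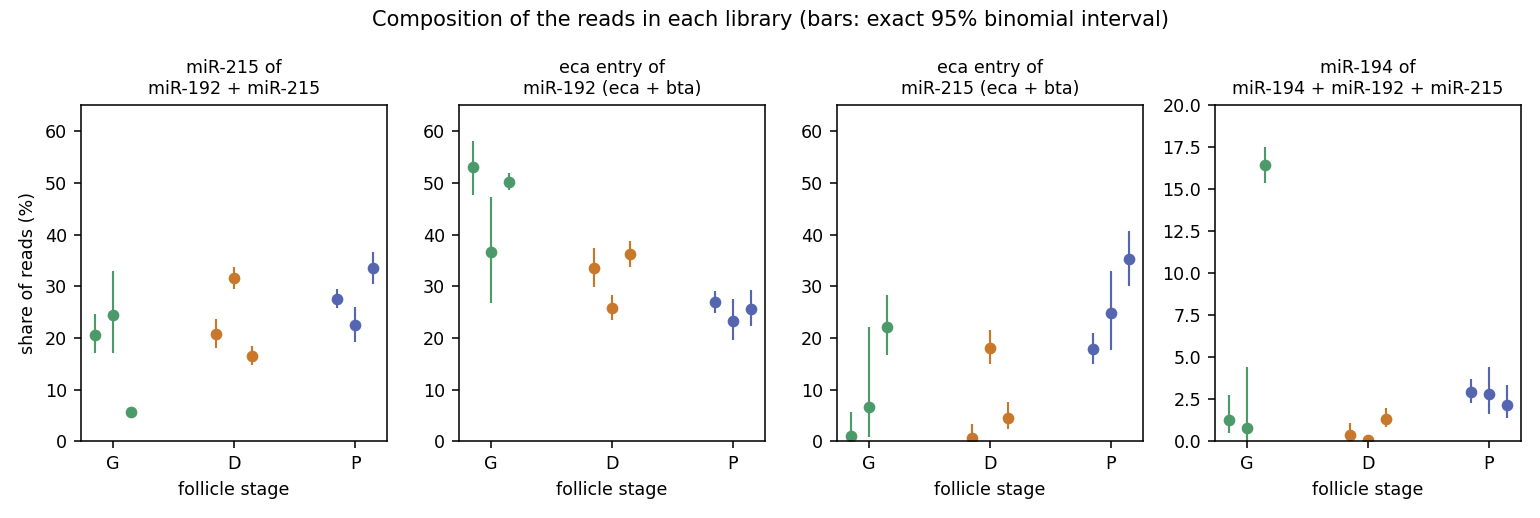
Shares of reads in each library (%), with exact 95% binomial intervals, for miR-215 among both paralogs, for the equine entries of miR-192 and of miR-215, and for miR-194 among miR-194, miR-192 and miR-215. The equine share of miR-192 is 36.6 to 53.0% in G and 23.3 to 26.9% in P, and the miR-194 share of G3 stands at 16.4%.

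miR-194, transcribed with either paralog in human and mouse, had 890 reads over all libraries, against 10091 of miR-192 and 2437 of miR-215, but in G3 it had more reads than miR-215 (749 against 213). eca-miR-194 had 164, 33.5 and 4227 CPM in the G libraries, 81.6, 21.6 and 529 CPM in the D libraries, and 1289, 657 and 529 CPM in the P libraries. G3 thus held most of its reads, and D2 held 1. As a share of miR-194, miR-192 and miR-215 reads it was 1.28, 0.806 and 16.4% in G, 0.376, 0.0550 and 1.32% in D, and 2.94, 2.79 and 2.19% in P. All P libraries were above all D libraries, with a difference of the mean log2 ratio of 2.90 (exact p = 0.1, two-sided, the smallest possible), which was 1.82 without D2 and 3.85 without D3, and the exact permutation test over the 3 stages gave p = 0.114. limma did not call eca-miR-194 in P vs. D (log2 change 2.74, SE 1.505, adjusted p = 0.341).

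The opposite arms of these miRNAs were hardly seen. hsa-miR-192-3p had 3 reads, hsa-miR-215-3p 2 and hsa-miR-194-3p 12, all in G3, the library with reads for the most entries. hsa-miR-122-3p had 0 of 540126 reads, which allows a level of up to 5.55 CPM before TMM adjustment, where eca-miR-122 had 8339 reads.

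Other miRNAs of liver and gut were listed by name. Of 31 entries, 14 had reads and 6 were tested, and limma called 0 of the 6 in each comparison, beside 0.959, 0.48 and 2.64% of all entries. Their median log2 change was -1.07 in D vs. G, 0.75 in P vs. G and 1.33 for P vs. D, beside -0.43, -0.28 and 0.16 for all entries. At an unadjusted p under 0.05 there were 0, 0 and 2 of the 6, where 9.35, 7.43 and 14.6% of all entries passed. edgeR and DESeq2 calls of this list were not counted. eca-miR-101, the most abundant, averaged 3042 ± 2859 CPM in G and 2332 ± 2187 CPM in D, with 1740.4 ± 113 CPM in P (SD, n = 3 each). hsa-miR-375-3p, known from islet and gut endocrine cells, ranged from 0 to 1964 CPM in G, 0 to 1195 CPM in D and 75.5 to 1420.1 CPM in P, and bta-miR-375 from 0 to 768 CPM in G, 0 to 368 CPM in D and 478 to 928 CPM in P. The hepatic eca-miR-802 and both arms of eca-miR-885 were at 0 in every library. Among the remaining lists, limma called eca-miR-378 of the granulosa and gonad list higher in D vs. G (1 of 12 tested), and in P vs. D eca-miR-486-5p (1 of 5 red-cell entries tested) and bta-miR-142-5p and eca-miR-142-3p (2 of 9 leukocyte entries tested) lower. All 4 of these calls were lost without D2 and without D3, and 3 of them without D1. The 3 calls in P vs. D were also lost without P1 and without P2, and 2 of them without P3. Calls over all 417 entries fell as well. In P vs. D they numbered 2, 1 and 1 without D1, D2 and D3, and 0, 0 and 5 without P1, P2 and P3, against 11. In D vs. G they numbered 1, 2 and 4 without D1, D2 and D3, against 4. The granulosa and gonad list summed to 36308 to 58879 CPM in G, 52009 to 84249 CPM in D and 29123 to 46262 CPM in P, so that D overlapped G but not P.

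Across the 9 libraries, miR-122 and miR-215 correlated with r = 0.63, miR-192 and miR-215 with r = 0.72, and miR-122 and miR-192 with r = 0.33 (Pearson, log2 scale). These values are descriptions: the libraries share 2 animals, fall into 3 stages and share the scaling. Of 185 other tested entries with a mean of at least 10 reads, the most similar to miR-122 were hsa-miR-10400-5p (r = 0.88, Spearman rho = 0.88), hsa-miR-4492 (r = 0.87, rho = 0.87) and eca-miR-22 (r = 0.84, rho = 0.90). The most similar to miR-192 were eca-miR-532-5p (r = 0.75, rho = 0.80), bta-miR-2428 (r = 0.70, rho = 0.73) and hsa-miR-4497 (r = 0.68, rho = 0.57). miR-215 was most similar to hsa-miR-4497 (r = 0.85, rho = 0.67), hsa-miR-4492 (r = 0.82, rho = 0.63) and eca-miR-10b (r = 0.73, rho = 0.63).

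**Figure D4:**
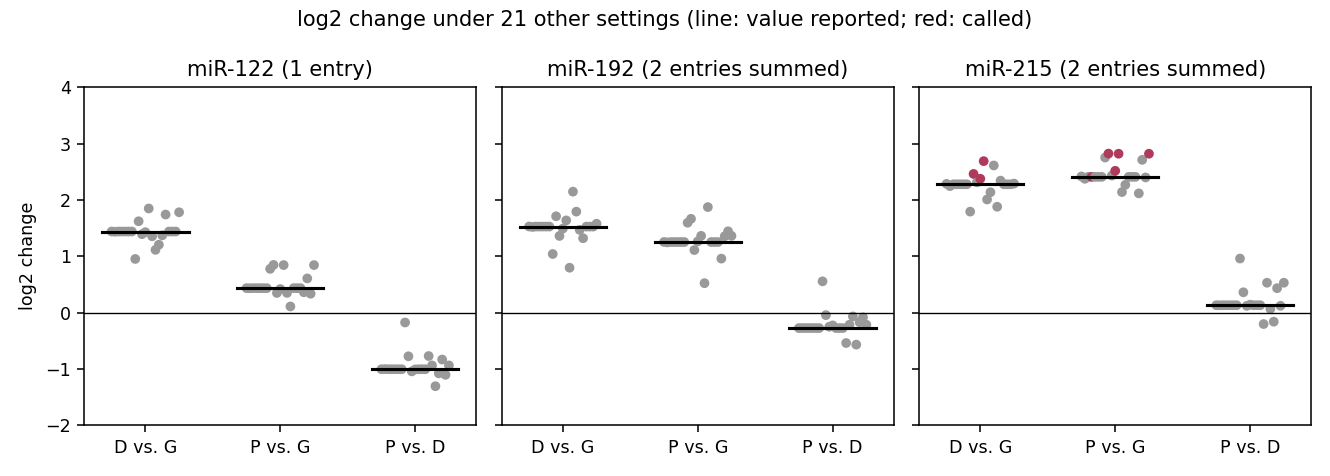
log2 change of miR-122, miR-192 and miR-215 (entries summed) for each comparison, where the line is the value reported and each point is another setting (21 for each, among them each library left out). Red points were called. They occur for miR-215 in D vs. G and P vs. G, where all values lie between 1.79 and 2.82, and for no other miRNA plotted. The number called over all summed miRNAs also differed between settings.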

How the data were processed

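Small-RNA libraries were made with a TruSeq kit from RNA of FF-EVs that the authors isolated by ultracentrifugation, precipitation and size exclusion. According to the methods, the authors trimmed the reads and counted those matching equine, bovine or human miRNAs of miRBase release 22 in CLC Genomics Workbench version 21. The deposited signal values are TMM-adjusted CPM; the submitters' processing notes also name bcl2fastq and DESeq2. Whole reads were recovered by dividing the deposited CPM by a library's smallest value (100% of values whole within 0.01). These values are not the counts of sequenced reads, and PCR copies were not told apart.

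Entries that exceeded 10 CPM in 2 or more of the 3 libraries of any stage were tested in R 4.3.3 by limma (version 3.58.1), whose prior variance followed the trend. In every library but G3, 1 read exceeds 10 CPM, so an entry with 1 read in each of 2 libraries can pass. The shares over all entries can include such entries. The recovered reads were also given to edgeR 4.0.16 and to DESeq2 1.42.0. DESeq2 gave no adjusted p for 70 entries (D vs. G), 189 entries (P vs. G) and 150 entries (P vs. D). Only the limma fit was tried on simulated reads, and only for P vs. D. The simulation did not copy the dominant entries of G1 and D2, and edgeR and DESeq2 were not tried in this way. Ratios had 0.5 reads added to both parts. Alternatives changed the pseudocount, filter, trend, scaling, groups in the fit, replicate block, threshold and tool, and left out each library. Leaving out G1 and D2 together, and both count tools on summed entries, were chosen after seeing the data. The members, lists and tests were chosen with earlier results of these data known. The text names all members and sums, from each list the called entries and up to 4 with the highest mean CPM, and the 3 most similar entries. Exact tests used scipy 1.17.1, tables pandas 2.3.3 and numpy 2.4.6, and figures matplotlib 3.10.9, all under Python 3.11.15.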

Additional observations from a re-analysis of the deposited data

How the results depend on the processing

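limma with all libraries called 0 of the 5 entries in each comparison. In D vs. G the number called was 1 with scaling to the library total without eca-miR-148a (6 of all 417 entries), 2 with DESeq2 (14 of all) and 0 to 1 when a library was left out (1 without G1, 8 of all). In P vs. G it was 3 with DESeq2 (14 of all), 0 to 1 when a library was left out (1 without G1, 19 of all) and 1 without G1 and D2 (18 of all). In P vs. D it was 0 under every alternative run. Over the whole summed table, limma with all libraries called 3 miRNAs in D vs. G and 2 in P vs. G. Summed miR-215 was called in D vs. G with a log2 change of 2.46 with scaling to the library total without eca-miR-148a (5 of all 378 summed miRNAs). With DESeq2 it was called at 2.38 (13 of 306). It ran from 1.88 to 2.69 when a library was left out. In P vs. G it was called at 2.82 with that scaling (3 of 378) and at 2.52 with DESeq2 (10 of 365). It was also called at 2.41 with entries above 10 CPM in all 3 replicates (5 of 262) and at 2.82 without G1 and D2 (11 of 378). It ran from 2.12 to 2.82 when a library was left out. Directions turned only for values that were not called. With scaling to the library total, P vs. D was 0.69 for bta-miR-192, 0.23 for eca-miR-192, 0.64 for bta-miR-215 and 0.55 for summed miR-192; without eca-miR-148a in the total it was 0.0904 for bta-miR-192 and 0.0424 for bta-miR-215. Without G1 and D2 it was 0.13 for bta-miR-215, and D vs. G was -0.44 for eca-miR-215. When a library was left out, P vs. D ran from -0.42 to 0.0551 for bta-miR-192, from -0.56 to 0.13 for bta-miR-215 and from -0.20 to 0.53 for summed miR-215, and P vs. G from -0.51 to 1.07 for eca-miR-192. Signs of ratio differences turned as well when a library was left out. In D vs. G the log2 difference ran from -0.01 to 1.22 for the miR-215 share. That of the equine share of miR-215 ran from -1.79 to 0.52. In P vs. G that of the miR-194 ratio ran from -0.94 to 1.07. The cause of these differences was not tested. Under the alternatives, 619 values kept their direction and side of the threshold or, for the 4 ratios and counts, moved by less than their spread or 1.5 times. All values of the ratios were among these, also where the sign turned. Of the others, 15 reversed, 17 came to be called and 6 counts of called entries moved.

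With the replicate number as a block, 0 of the 5 entries were called in each comparison, and 4, 3 and 11 of all entries in D vs. G, P vs. G and P vs. D, against 4, 2 and 11 without it. The deviations of libraries with the same number correlated with r from -0.06 to -0.02 in D vs. G, 0.04 to 0.14 in P vs. G and -0.01 to 0.08 in P vs. D. In the same order, 0, 6 and 3 of 6 libraries correlated best with their own number. This is a hint from the data and not the design, and it cannot show whether libraries with equal numbers share an origin. Over all entries, the number called over all settings ran from 1 to 14 in D vs. G, from 0 to 19 in P vs. G and from 0 to 46 in P vs. D, against 4, 2 and 11 as reported. Depth limits eca-miR-215 and eca-miR-194 most, with 1 or 2 reads in some libraries.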
